A study of Rattus norvegicus with 6 samples.

Results

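The collagen chain genes are the rows of the rat count table whose gene symbol reads Col, a number, the letter a and a number, and 44 of the 30560 rows carry such a symbol. Every matching row was kept, whatever its level. They were followed in 6 poly(A) RNA-seq libraries of wild-type rat mesenchymal stem cells, the multipotent stromal cells that give rise to bone, cartilage and fat. In all 6, the cells received 200 nM doxorubicin, a DNA-damaging drug used here to bring on senescence, for 24 hours and then spent 6 days in fresh medium. The 3 SMNV libraries come from cells given 100 µg/ml of an agent that the labels call SMNV and do not spell out, and the 3 Dox libraries come from cells given its vehicle. Both groups therefore carry the doxorubicin exposure, and no library from cells without it was analysed here. The labels give no animal, passage or culture for a library, so p-values measure only the spread between these samples, which may be technical.

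Collagens are secreted as trimers of α chains wound into a triple helix, and each chain has its own gene. Fibrillar collagens, led by types I, III and V, pack side by side into the fibrils of bone, tendon and skin. Type IV chains form the sheet-like network of basement membranes, FACIT collagens (fibril-associated collagens with interrupted triple helices) sit on fibril surfaces, and transmembrane collagens stay anchored in the plasma membrane. Type VI makes beaded filaments around cells, type VIII a hexagonal network, and the multiplexins XV and XVIII link basement membranes to the matrix beside them. Mesenchymal stromal cells are known producers of types I, III, V and VI, and type I is the main protein of bone matrix.

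Most collagen genes with measurable expression were higher in SMNV than in Dox libraries. Of the 44 rows, 38 had a count in at least 1 library and 23 passed the filter on low counts. Of these 23, 17 rose, 1 fell and 5 did not pass the threshold, an adjusted p of 0.05 in edgeR's quasi-likelihood test with Benjamini-Hochberg adjustment over all 12614 tested genes. The background was high: 60.4% of all tested genes were called, 30.5% as higher and 29.9% as lower in SMNV. Among the tested collagen rows 73.9% were called higher and 4.35% lower, and their median log2 fold change (SMNV over Dox) was 0.69, beside -0.01 for all tested genes. In 20 of the 23 the normalised counts of the groups did not overlap, beside 66.9% of all tested genes, and 8 rose at least 2-fold, a size that 8.67% of all tested genes reached as a rise. None fell by that much, beside 1.52% of all tested genes. In a limma fit of log2(TPM + 1), 15 collagen rows were higher and 2 lower, beside 24.4% and 36.9% of all tested genes. In bulk RNA, a change in the number of cells making a transcript and a change in transcript per cell cannot be told apart.

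The libraries held 18640909 to 21506967 estimated counts. Scaling factors ran from 0.970 to 0.993 in SMNV and were 1.02 in each Dox library. A library's 10 most abundant genes held 17.8% to 19.4% of SMNV counts and 14.4% to 15.2% of Dox counts. Col1a1, Col1a2 and Col3a1 are among these 10 in every library, so this difference is not separate from the collagen shares. Col1a1 and Col1a2 together took 7.32% of counts in SMNV and 3.68% in Dox, and Col3a1 2.45% and 1.96%. A row for 28S ribosomal RNA stood at 32.3, 44.2 and 127.6 CPM (normalised counts per 1e6) in SMNV libraries 1 to 3 and at 5.80, 1.21 and 2.51 CPM in Dox libraries 1 to 3. Without ribosomal and mitochondrial RNA rows in the total, the collagen share of counts was still higher in SMNV. Beyond this, the part of the 28S row in the collagen results was not tested. Shorter genes had higher fold changes, with a median log2 fold change of 0.17 for genes under 1 kb and -0.20 for genes over 6 kb. Collagen transcripts lie at the long end: 21 of the 23 tested rows were over 4 kb, and 26.3% of tested genes of 4 to 6 kb and 22.1% of those over 6 kb were called higher. All 14 measured genes of a mesenchymal stromal list exceeded 1 CPM, with summed levels of 10399 to 10797 CPM in SMNV and 10267 to 10408 CPM in Dox. Within this list 3 genes were called higher, 7 lower and 4 not, with Vim at 4492 ± 256 CPM in SMNV and 2683 ± 184 CPM in Dox and Cd44 at 177.7 ± 1.3 CPM in SMNV and 376.9 ± 23.9 CPM in Dox (SD, n = 3 each). Of 13 haematopoietic genes 7, among them Ptprc and Itgam, were at 0 in every library. The 13 summed to 10.2 to 12.3 CPM in SMNV and 10.2 to 11.8 CPM in Dox. Of its 4 tested genes Csf1r was called lower (log2 fold change -0.91), Laptm5 higher (0.63), and Coro1a and Cd14 did not pass. Of 10 endothelial genes, Cdh5, Plvap, Emcn and Kdr were at 0. The sum was 7.31 to 9.84 CPM in SMNV and 6.05 to 6.65 CPM in Dox, without overlap. Most of it was Egfl7, called higher at 6.40 ± 1.17 CPM in SMNV and 4.10 ± 0.57 CPM in Dox (SD, n = 3 each), and Tek did not pass.

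**Figure D1:**
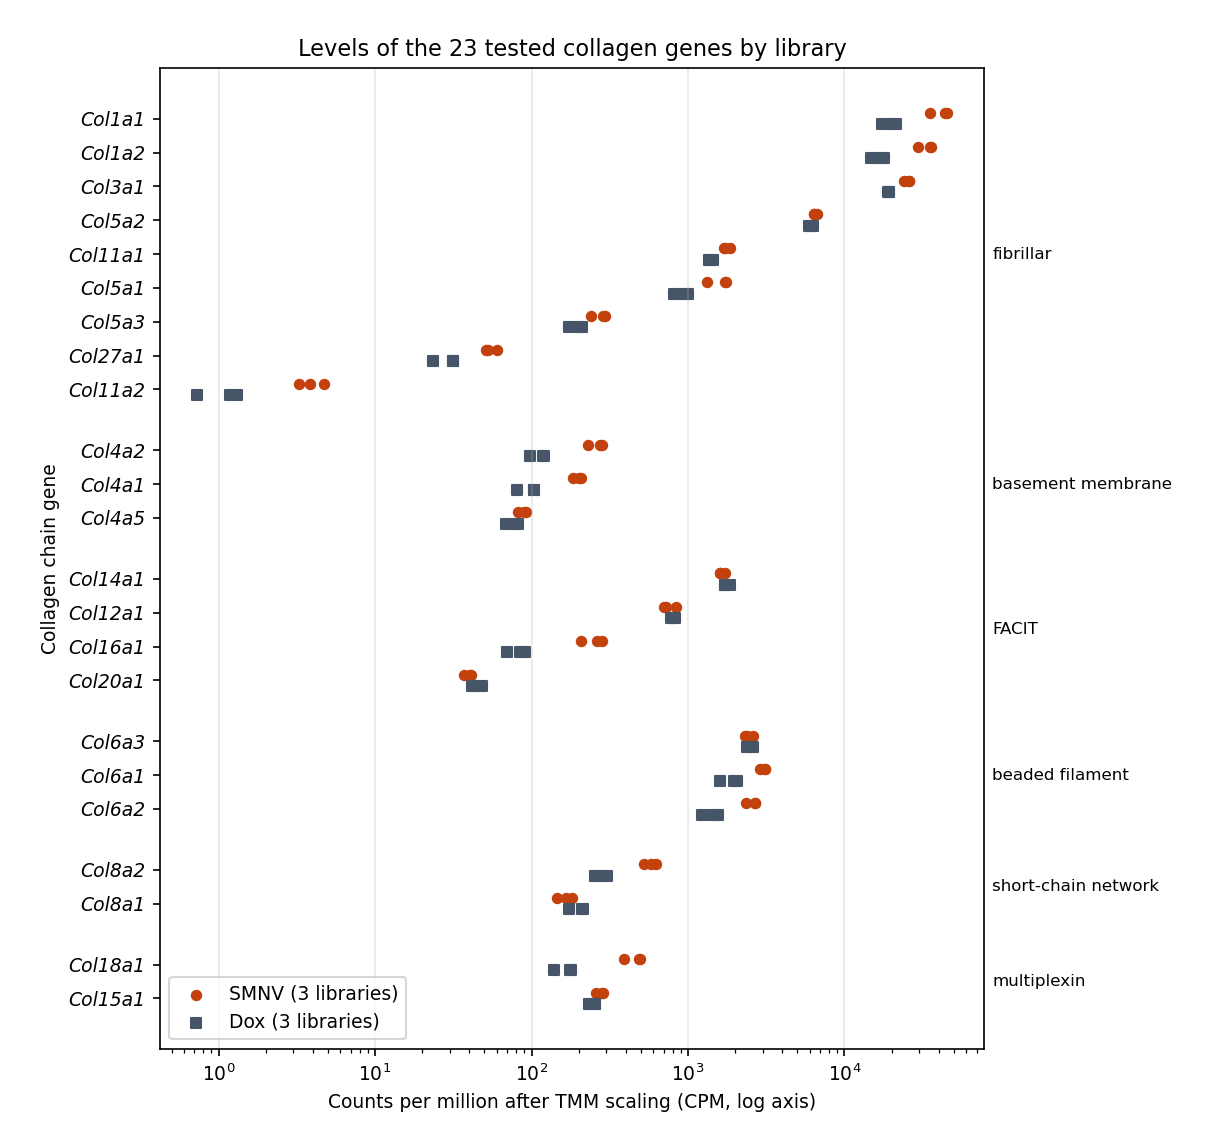
Normalised counts of the 23 tested collagen genes on a log axis (CPM after scaling), grouped by class, with circles for the 3 SMNV libraries above squares for the 3 Dox libraries of each gene. Col1a1, Col1a2 and Col3a1 lie at 14856 CPM or more in all 6 libraries, and the SMNV circles lie right of the Dox squares for most genes but not for Col14a1, Col12a1, Col20a1, Col6a3 and Col8a1.

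Fibrillar chains held most of the collagen counts, and most of them rose. Of 11 fibrillar rows 9 were tested, and 8 rose and none fell, with a median log2 fold change of 0.80. Over all tested genes 30.5% were called higher and 29.9% lower. Col1a1 (ENSRNOG00000003897), the α1 chain of type I collagen, stood at 43946, 35389 and 44916 CPM in SMNV libraries 1 to 3 and at 17356, 21444 and 19859 CPM in Dox libraries 1 to 3. Every SMNV value was above every Dox value, with SMNV 2 the lowest of its group and Dox 1 the lowest of the other. Col1a2 (ENSRNOG00000011292), the α2 chain, stood at 35836, 29519 and 35213 CPM in SMNV and at 14856, 17828 and 16874 CPM in Dox. The same libraries were lowest, and the groups were again apart. The log2 fold changes were 1.08 ± 0.10 (SE) for Col1a1 (adjusted p = 2.98e-07, edgeR) and 1.02 ± 0.09 for Col1a2 (adjusted p = 2.05e-07). By TPM, which divides by transcript length, Col1a1 was the gene of rank 6, 9 and 6 among all rows in the SMNV libraries, and of rank 21, 14 and 15 in the Dox libraries. The estimated counts of Col1a1 and Col1a2 carried decimals in SMNV 3 alone.

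The upstream sequence of Col1a2 is shown because its transcript was among the most abundant and rose beside that of its partner chain. The window is the 250 bases before the RefSeq gene start at chr4:33518307-33518556 of GRCr8, plus strand. It comes from a build other than the mRatBN7.2 genome named for the counts and is used for its letters only. Capitals mark matches on either strand to the letters TATAAA of a TATA box, to the core CCAAT bound by the factor NF-Y, or to the GC box, GGGCGG, bound by the factor Sp1. Here a reverse-strand CCAAT begins at base -221 and TATAAA at base -170, counted from the RefSeq gene start. Where transcription starts in these cells was not measured, so part of a window may itself be transcribed. No matches of different motifs overlap in the windows shown.
Col1a2: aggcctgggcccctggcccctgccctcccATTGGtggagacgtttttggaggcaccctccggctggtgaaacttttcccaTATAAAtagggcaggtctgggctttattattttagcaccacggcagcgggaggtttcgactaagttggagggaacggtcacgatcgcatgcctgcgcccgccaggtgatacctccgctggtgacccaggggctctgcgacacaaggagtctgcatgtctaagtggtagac
Such windows were found for 35 of the 44 collagen genes and for 18 of the 23 tested. On either strand, TATAAA stood in 1 of those 18 windows, that of Col1a2, beside 12.9% of all 33469 windows of this length. CCAAT stood in 6 of the 18, beside 34.0% of all windows, and GGGCGG in 13 of the 18, beside 30.5%. The windows of the 14 genes that rose held 52.8% to 75.2% G and C, with a median of 64.2%, beside 51.2% over all windows. The 3 windows of genes that did not pass held 44.8% to 58.4%, and that of Col8a1, called lower, held 62.0%. A link between these windows and the rises was not tested.

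Col3a1 (ENSRNOG00000003357), whose product forms homotrimers that mix with type I in the same fibrils, stood at 25744, 23847 and 25667 CPM in SMNV and at 19297, 19302 and 19070 CPM in Dox. The Dox libraries were nearly equal, and all 3 SMNV libraries lay above them. Col3a1 rose by 0.38 ± 0.06 on the log2 scale (adjusted p = 0.000121, edgeR). Col5a1, the main chain of the type V collagen that sits in the core of type I fibrils and limits their width, stood at 1760, 1330 and 1719 CPM in SMNV and at 810.7, 1006 and 950.9 CPM in Dox, and rose by 0.80 ± 0.10 on the log2 scale (adjusted p = 8.35e-06). Its partner Col5a2 stood at 6642, 6371 and 6429 CPM in SMNV and at 5896, 6140 and 6262 CPM in Dox. The Col5a2 groups were apart by a narrow gap, and the log2 fold change of 0.09 ± 0.06 did not pass the threshold (adjusted p = 0.239). Col3a1 and Col5a2 are neighbours on chromosome 9, with no protein-coding gene between them in RefSeq.

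Col11a2, a type XI chain best known from cartilage, was the scarcest fibrillar row that could be tested. It had 67, 100 and 76 counts in SMNV and 15, 25 and 24 counts in Dox, or 3.28, 4.69 and 3.83 CPM in SMNV and 0.731, 1.32 and 1.18 CPM in Dox. The groups were apart, and its log2 fold change of 1.87 ± 0.27 was the largest among the tested collagen rows with all 6 libraries (adjusted p = 2.50e-05, edgeR). It did not lead on log2(TPM + 1), where Col11a2 gave 0.66 and Col16a1 1.45, nor without SMNV 2, where both gave 1.74. Its partner Col11a1 was abundant, at 1693 to 1852 CPM in SMNV and 1371 to 1446 CPM in Dox, and rose by 0.33 ± 0.06. Col5a3 rose by 0.50 ± 0.08 and Col27a1, a fibrillar chain of cartilage, by 0.93 ± 0.11. Col2a1, the main collagen of cartilage, had a single count, in SMNV 1, and Col24a1 had 3 counts, all in Dox 2.

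**Figure D2:**
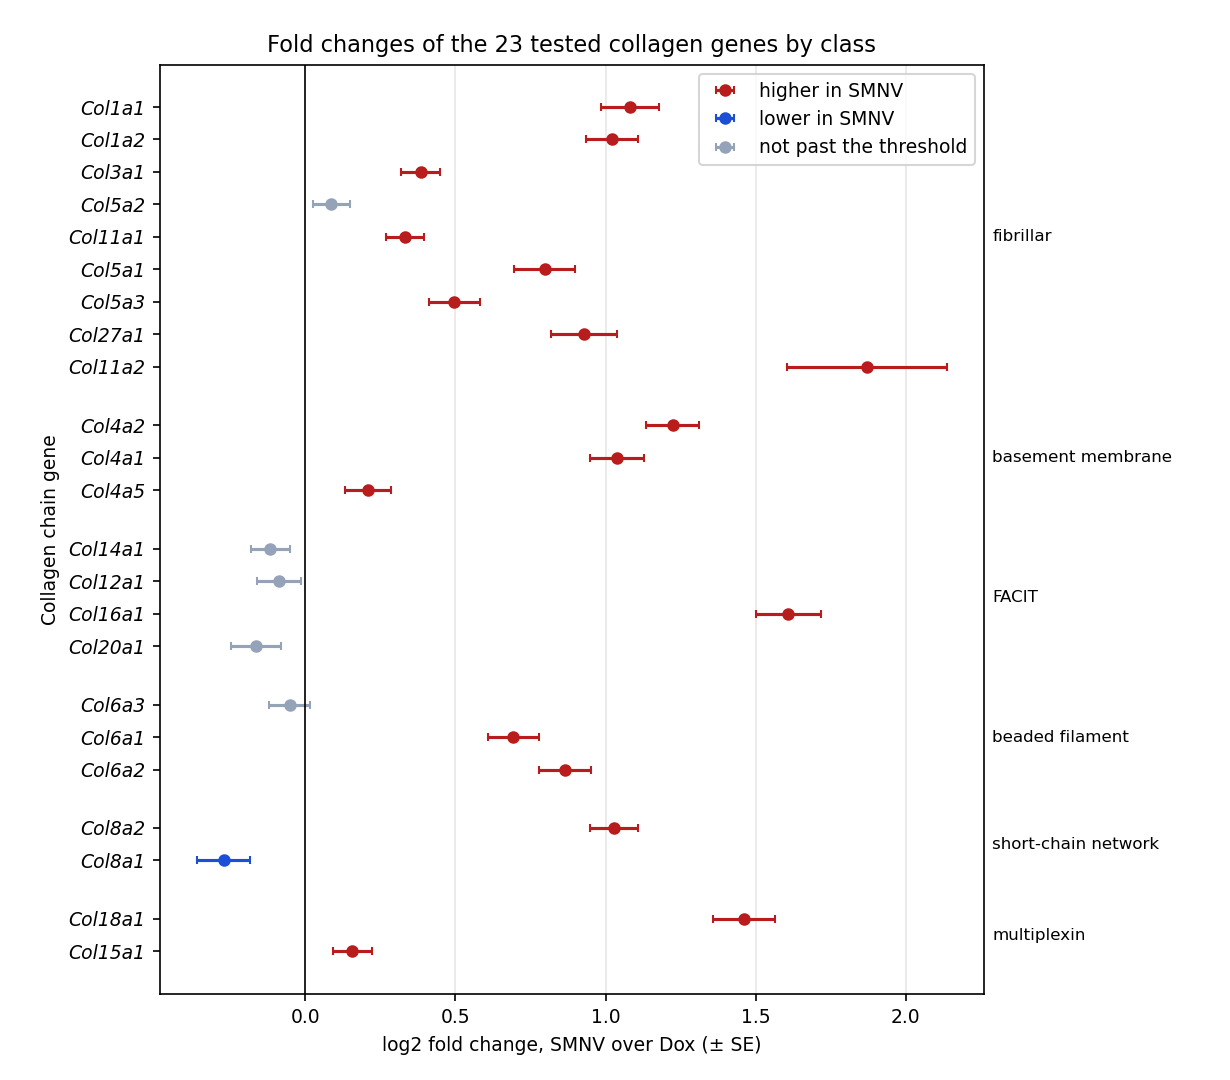
Log2 fold change of SMNV over Dox for the 23 tested collagen genes, by class; points are edgeR estimates, bars are 1 standard error and colour gives the call at an adjusted p of 0.05. Col11a2, Col16a1, Col18a1 and Col4a2 lie farthest right, at 1.87, 1.61, 1.46 and 1.22, and Col8a1 is the single gene called lower, at -0.27.

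Both ubiquitous type IV chains rose. Of 6 basement membrane rows, 3 were tested and all 3 were called higher, beside 30.5% of all tested genes. Col4a2 (ENSRNOG00000023972) stood at 281.4, 230.0 and 272.9 CPM in SMNV and at 97.8, 120.5 and 117.8 CPM in Dox. Col4a1 (ENSRNOG00000016281), which joins Col4a2 in the common type IV trimer, stood at 207.4, 183.3 and 200.2 CPM in SMNV and at 80.4, 104.1 and 103.1 CPM in Dox. Neither gene overlapped between groups, and the log2 fold changes were 1.22 ± 0.09 for Col4a2 (adjusted p = 4.21e-08, edgeR) and 1.04 ± 0.09 for Col4a1 (adjusted p = 2.05e-07). Col4a5, a chain of the more specialised type IV trimers, stood at 92.8, 82.5 and 89.4 CPM in SMNV and at 68.8, 78.0 and 82.0 CPM in Dox. SMNV 2 and Dox 3 were almost level. Its log2 fold change of 0.21 ± 0.08 was called (adjusted p = 0.0262), but the call was lost without SMNV 1 (adjusted p = 0.0912), without SMNV 3 (0.0646), without Dox 1 (0.0929) and with scaling by library totals alone (0.0996). On log2(TPM + 1) its log2 fold change was 0.09 (adjusted p = 0.435, limma). Col4a6 had 1 to 5 counts per library, Col4a4 had 1 and 3 counts in SMNV 1 and SMNV 2 and none elsewhere, and Col4a3 had none.

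Col4a1 and Col4a2 lie head to head and are read in opposite directions, which is why both upstream windows are shown. In GRCr8 their RefSeq starts are 77 bases apart and the windows, chr16:84885347-84885596 on the plus strand for Col4a1 and chr16:84885521-84885770 on the minus strand for Col4a2, share 76 bases. Capitals mark CCAAT and GC box letters on either strand.
Col4a1: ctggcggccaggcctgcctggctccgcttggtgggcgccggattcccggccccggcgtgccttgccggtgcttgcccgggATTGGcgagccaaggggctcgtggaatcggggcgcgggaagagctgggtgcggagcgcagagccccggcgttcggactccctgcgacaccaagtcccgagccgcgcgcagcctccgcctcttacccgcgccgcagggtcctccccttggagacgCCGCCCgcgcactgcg
Col4a2: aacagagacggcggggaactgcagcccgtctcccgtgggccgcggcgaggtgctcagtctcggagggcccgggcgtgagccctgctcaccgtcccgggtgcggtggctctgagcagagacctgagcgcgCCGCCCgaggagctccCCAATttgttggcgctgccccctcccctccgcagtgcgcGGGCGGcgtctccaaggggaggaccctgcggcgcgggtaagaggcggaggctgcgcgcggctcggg
In the Col4a2 window CCAAT starts at base -105 and the GC box letters at bases -121 and -66. In the Col4a1 window a reverse-strand CCAAT starts at base -170 and a reverse-strand GC box at base -16. That GC box and the Col4a2 match at base -66 are the same bases of the shared stretch, seen from opposite strands. G and C made up 75.2% of the Col4a1 window and 74.4% of the Col4a2 window.

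FACIT collagens divided. Of the 9 FACIT rows 4 were tested, 1 rose and 3 did not pass. With 4 rows, 1 rise is close to the 30.5% of all tested genes called higher. Col16a1 (ENSRNOG00000031475), the type XVI chain that lies at the rim of fibrils and microfibrils, stood at 260.9, 206.6 and 280.7 CPM in SMNV and at 69.9, 91.1 and 84.5 CPM in Dox. The groups were far apart, and Col16a1 rose by 1.61 ± 0.11 on the log2 scale (adjusted p = 1.97e-08, edgeR), the smallest adjusted p among the collagen rows. Col14a1, which binds fibrils through decorin, stood at 1711, 1593 and 1599 CPM in SMNV and at 1861, 1723 and 1730 CPM in Dox. SMNV 1 and Dox 2 were nearly equal, and the log2 fold change of -0.12 ± 0.06 did not pass (adjusted p = 0.13). With library totals alone it passed as lower (adjusted p = 0.0242). Col12a1, known for fibrils under mechanical load, stood at 838.2, 718.2 and 700.1 CPM in SMNV and at 830.9, 776.0 and 787.8 CPM in Dox. The highest Col12a1 value was SMNV 1 and the lowest SMNV 3, and the log2 fold change was -0.09 ± 0.07 (adjusted p = 0.326). It passed as lower without SMNV 1 (adjusted p = 0.0458). Col20a1 averaged 39.6 ± 2.2 CPM in SMNV and 44.4 ± 3.2 CPM in Dox (SD, n = 3 each) and did not pass (adjusted p = 0.0998), but did as lower with library totals alone (0.0293). Its estimated counts had decimals in all 6 libraries. The other 5 FACIT rows, Col22a1, Col9a3, Col9a2, Col19a1 and Col9a1, had at most 5 counts in a library, and Col9a1 had none.

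The upstream window of Col16a1 is shown as that of the FACIT gene that rose, at chr5:147672846-147673095 of GRCr8, plus strand, with the GC box letters in capitals at bases -183 and -20.
Col16a1: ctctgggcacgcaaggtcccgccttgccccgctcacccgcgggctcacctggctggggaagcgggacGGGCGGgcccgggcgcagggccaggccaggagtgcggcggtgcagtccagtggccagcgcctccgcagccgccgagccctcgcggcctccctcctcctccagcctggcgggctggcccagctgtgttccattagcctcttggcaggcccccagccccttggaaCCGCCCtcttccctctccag
The letters of the other motifs were not in it on either strand, and G and C made up 74.8% of its bases.

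Transmembrane collagens were barely detected in either group. None of the 4 rows passed the filter on low counts. Col23a1 had 9, 5 and 11 counts in SMNV and 8, 6 and 5 counts in Dox. Col17a1, a component of hemidesmosomes in epithelia, had 5, 2 and 0 counts in SMNV and 3, 8 and 1 counts in Dox. Col25a1 had no count in SMNV and 0, 3 and 1 counts in Dox, and Col13a1 had none in any library. At these depths a count of 0 allows up to 3 counts, or 0.139 to 0.161 CPM, counting error only, and no difference between the groups was detectable at this depth. The class took 5.1e-05% ± 1.7e-05 of all counts in SMNV and 6.0e-05% ± 2.8e-05 in Dox (SD, n = 3 each, exact permutation p = 0.6).

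Among the beaded filament genes, 2 of the 3 type VI chains measured rose, beside 30.5% of all tested genes called higher. Col6a1 stood at 3092, 2897 and 3107 CPM in SMNV and at 1598, 2057 and 1971 CPM in Dox. Col6a2, its neighbour on chromosome 20 and partner in the type VI trimer, stood at 2666, 2342 and 2699 CPM in SMNV and at 1223, 1560 and 1445 CPM in Dox. Both were apart between groups, with log2 fold changes of 0.69 ± 0.08 (adjusted p = 6.00e-06, edgeR) for Col6a1 and 0.87 ± 0.09 (adjusted p = 8.90e-07) for Col6a2. Col6a3, the long α3 chain of that trimer, stood at 2602, 2312 and 2367 CPM in SMNV and at 2382, 2606 and 2561 CPM in Dox. Its groups overlapped and its log2 fold change of -0.05 ± 0.07 did not pass (adjusted p = 0.525). Col6a6 had at most 2.07 estimated counts, and Col6a5 and Col6a4 had none.

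The short-chain type VIII genes were called in opposite directions. Col8a2 (ENSRNOG00000010841) stood at 582.2, 521.7 and 623.0 CPM in SMNV and at 254.3, 305.2 and 287.4 CPM in Dox, with the groups apart, and rose by 1.03 ± 0.08 on the log2 scale (adjusted p = 8.47e-08, edgeR). Col8a1 (ENSRNOG00000039668) stood at 180.6, 145.7 and 166.6 CPM in SMNV and at 172.6, 210.2 and 211.7 CPM in Dox. Its groups overlapped, since SMNV 1 exceeded Dox 1. Col8a1 was the single collagen row called lower (log2 fold change -0.27 ± 0.09, adjusted p = 0.0155), and the call was lost without SMNV 2 (adjusted p = 0.11), without Dox 2 (0.0569) and without Dox 3 (0.0825). Col10a1, the collagen of hypertrophic cartilage, had 6, 8 and 2 counts in SMNV and 8, 10 and 16 counts in Dox and was not tested. The windows of both type VIII genes are shown because these chains moved apart, at chr5:143870519-143870768 for Col8a2 and chr11:56246532-56246781 for Col8a1, both on the plus strand of GRCr8, with GC box letters of either strand in capitals.
Col8a2: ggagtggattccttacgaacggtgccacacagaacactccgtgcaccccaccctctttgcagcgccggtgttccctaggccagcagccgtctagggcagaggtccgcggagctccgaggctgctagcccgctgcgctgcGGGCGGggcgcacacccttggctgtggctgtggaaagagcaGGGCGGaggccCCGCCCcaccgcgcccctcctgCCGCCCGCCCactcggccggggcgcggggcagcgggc
Col8a1: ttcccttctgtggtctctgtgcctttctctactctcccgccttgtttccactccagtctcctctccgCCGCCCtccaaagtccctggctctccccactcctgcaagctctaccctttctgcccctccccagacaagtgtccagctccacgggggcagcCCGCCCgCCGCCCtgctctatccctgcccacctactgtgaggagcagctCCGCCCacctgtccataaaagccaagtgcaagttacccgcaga
The GC box letters occurred 5 times before Col8a2, with 2 of these matches overlapping each other, and 4 times before Col8a1, and neither window held the letters of the other motifs on either strand. G and C made up 73.2% of the Col8a2 window and 62.0% of the Col8a1 window.

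Both multiplexins were called higher, beside 30.5% of all tested genes. Col18a1, whose C-terminal fragment is the angiogenesis inhibitor endostatin, stood at 489.8, 389.4 and 483.4 CPM in SMNV and at 138.3, 179.8 and 177.1 CPM in Dox. The lowest SMNV value was more than 2 times the highest Dox value, and the log2 fold change was 1.46 ± 0.10 (adjusted p = 2.74e-08, edgeR). Col15a1 stood at 287.1, 258.5 and 284.0 CPM in SMNV and at 233.8, 256.1 and 254.3 CPM in Dox. SMNV 2 was hardly above Dox 2, and the log2 fold change of 0.16 ± 0.07 was at the edge of the threshold (adjusted p = 0.0494). The Col15a1 call was lost without SMNV 1 (adjusted p = 0.131), SMNV 3 (0.144), Dox 1 (0.112) or Dox 3 (0.0892), with library totals alone (0.222) and with length offsets (0.057). On log2(TPM + 1) the log2 fold change of Col15a1 was 0.04 (adjusted p = 0.675, limma). The remaining rows were close to absent: Col7a1, the chain of the anchoring fibrils of skin, had at most 3 counts in a library, Col26a1 had 1 count in SMNV 3, and Col28a1 had none.

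As a share of all counts, the 44 collagen rows took 12.6%, 10.9% and 12.5% in SMNV libraries 1 to 3 and 7.04%, 7.90% and 7.62% in Dox libraries 1 to 3. The lowest SMNV library was above the highest Dox library. The means were 12.01% ± 0.92 in SMNV and 7.52% ± 0.44 in Dox (SD, n = 3 each, exact permutation p = 0.1, two-sided, the smallest that 3 against 3 allows). Col1a1 and Col1a2 together took 7.32% ± 0.77 in SMNV and 3.68% ± 0.36 in Dox. Without them the other 42 rows took 4.69% ± 0.16 in SMNV and 3.83% ± 0.08 in Dox, and the libraries of the groups still did not overlap. On the length-scaled TPM values the 44 rows took 4.09% ± 0.44 in SMNV and 2.64% ± 0.16 in Dox.

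By class, fibrillar rows took 10.8% ± 0.87 of all counts in SMNV and 6.53% ± 0.38 in Dox, and basement membrane rows took 0.0534% ± 0.0038 in SMNV and 0.0290% ± 0.0033 in Dox (SD, n = 3 each, exact permutation p = 0.1 for both). The FACIT share was 0.262% ± 0.013 in SMNV and 0.275% ± 0.010 in Dox, with overlapping libraries (exact permutation p = 0.3). The 14 rows of the remaining classes took 0.929% ± 0.043 in SMNV and 0.684% ± 0.062 in Dox (exact permutation p = 0.1). Among these, the beaded filament rows took 0.785% ± 0.032 in SMNV and 0.593% ± 0.054 in Dox (exact permutation p = 0.1).

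Within the collagen counts, type I took a larger part and type III and the FACITs a smaller one. Col1a1 and Col1a2 made up 60.9% ± 1.8 of collagen counts in SMNV and 48.9% ± 2.0 in Dox. Col3a1 made up 20.5% ± 0.99 in SMNV and 26.2% ± 1.6 in Dox, although its own level rose. The FACIT rows made up 2.18% ± 0.14 in SMNV and 3.68% ± 0.36 in Dox. Beaded filament rows made up 6.55% ± 0.26 in SMNV and 7.87% ± 0.27 in Dox, although their share of all counts was higher in SMNV. Basement membrane rows made up 0.445% ± 0.008 in SMNV and 0.385% ± 0.024 in Dox, and all fibrillar rows together 89.6% ± 0.40 in SMNV and 86.9% ± 0.09 in Dox. In each of these 6 comparisons no SMNV library overlapped a Dox library (SD, n = 3 each, exact permutation p = 0.1, the smallest possible). The fibrillar difference went with type I: among collagen counts without Col1a1 and Col1a2, fibrillar rows made up 73.5% in SMNV and 74.2% in Dox (exact permutation p = 0.3).

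**Figure D3:**
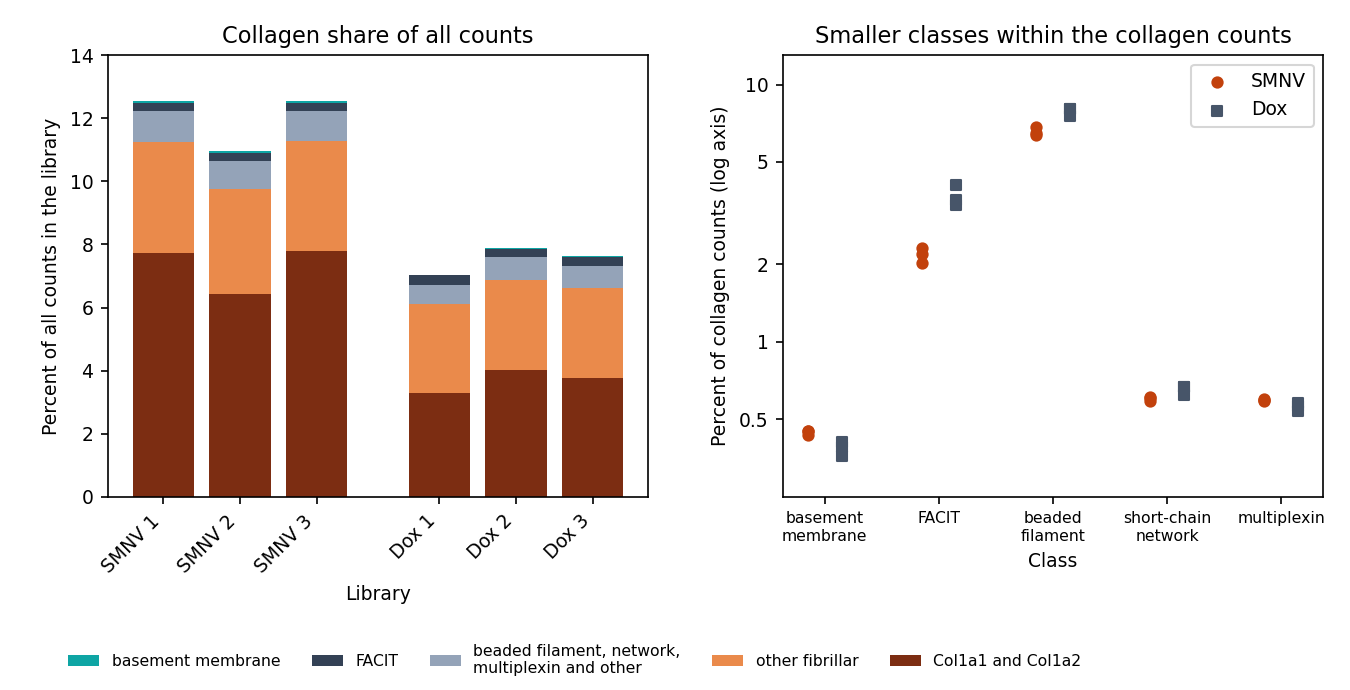
Left, percent of all counts taken by collagen classes in each library, as stacked bars, with the 3 SMNV libraries left of the 3 Dox libraries; right, percent of collagen counts in the smaller classes on a log axis, with circles for SMNV and squares for Dox. The bars reach 10.9% to 12.6% in SMNV and 7.04% to 7.90% in Dox, and most of the difference is the Col1a1 and Col1a2 segment; transmembrane rows are too few to draw.

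Per length, the order at the top of the family differed between the groups. In TPM, SMNV libraries had Col1a2 first with a mean of 12430, then Col1a1 with 12216 and Col3a1 with 9086. Dox libraries had Col3a1 first with 7545 TPM, then Col1a2 with 6653 and Col1a1 with 6403. In SMNV the ranges of Col1a2 and Col1a1 overlapped and both lay above Col3a1, and in Dox Col3a1 lay above both. Col5a2 was at position 4 in each group, at 1826 TPM in SMNV and 1862 TPM in Dox. Col18a1 stood at position 12 in SMNV and 16 in Dox, and Col8a1 at position 14 in SMNV and 11 in Dox. In SMNV the ranges of Col18a1 and Col12a1 overlapped, as did those of Col12a1 and Col8a1, and in Dox those of Col8a1 and Col12a1 and of Col5a3 and Col18a1 overlapped, so these positions are not settled between neighbours.

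Count ratios were compared within each library for 7 pairs, where scaling between libraries cancels. In 5 pairs both chains belong to the same collagen type, and in the other two, Col3a1 to Col1a1 and Col5a1 to Col1a1, the chains belong to different trimers that mix in fibrils. Col1a1 to Col1a2 gave a count ratio of 1.23, 1.20 and 1.28 in SMNV and of 1.17, 1.20 and 1.18 in Dox. The groups overlapped, and the log2 ratios differed by 0.06 (exact permutation p = 0.2). By TPM the ratio was 0.98 ± 0.03 in SMNV and 0.96 ± 0.02 in Dox (SD, n = 3 each), where the type I trimer holds more α1 than α2 chains. Col4a1 to Col4a2 gave 0.737, 0.797 and 0.734 in SMNV and 0.822, 0.864 and 0.876 in Dox, a log2 difference of -0.18. Col6a1 to Col6a2 gave 1.16, 1.24 and 1.15 in SMNV and 1.31, 1.32 and 1.36 in Dox, a log2 difference of -0.17. These 2 ratios moved little, though the groups did not overlap.

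The other 4 ratios included the widest gaps. Col8a1 to Col8a2 gave 0.310, 0.279 and 0.267 in SMNV and 0.679, 0.689 and 0.737 in Dox, a log2 difference of -1.30. Col5a1 to Col5a2 gave 0.265, 0.209 and 0.267 in SMNV and 0.138, 0.164 and 0.152 in Dox, a log2 difference of 0.70. By TPM, Col5a1 stood at 0.27 ± 0.04 of Col5a2 in SMNV and at 0.165 ± 0.014 in Dox (SD, n = 3 each). Col3a1 to Col1a1 gave 0.586, 0.674 and 0.571 in SMNV and 1.11, 0.900 and 0.960 in Dox, a log2 difference of -0.70. Col5a1 to Col1a1 gave 0.0401, 0.0376 and 0.0383 in SMNV and 0.0467, 0.0469 and 0.0479 in Dox, a log2 difference of -0.29. For these 4 and for the type IV and type VI pairs the groups were apart in all 6 libraries and the exact permutation p was 0.1, or 0.117 after Benjamini-Hochberg adjustment over the 7 pairs, so that none could reach 0.05 in this design.

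**Figure D4:**
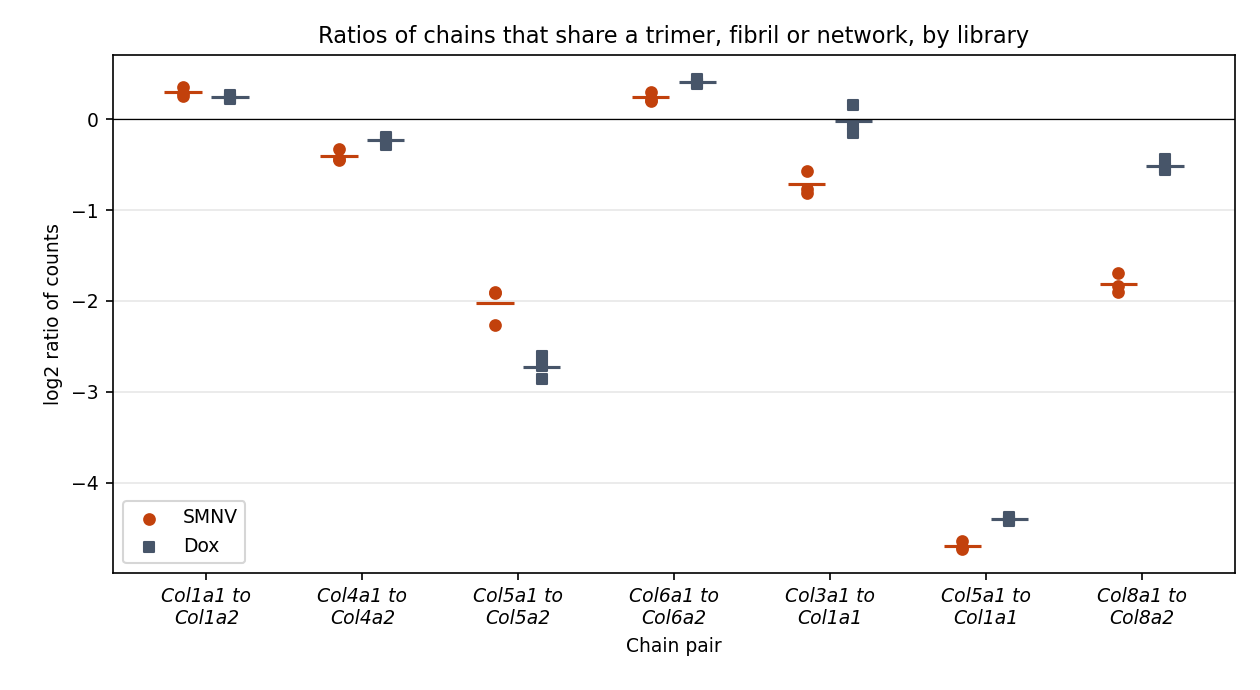
Log2 ratio of counts for 7 pairs of collagen chains, with circles for the SMNV libraries left of squares for the Dox libraries and short lines for group means. Col8a1 to Col8a2 shows the widest gap, with a log2 difference of -1.30, and Col1a1 to Col1a2 the smallest, with 0.06 and overlapping groups.

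The rises shared a library pattern. SMNV 2 was the lowest SMNV library in 15 of the 17 collagen rows that rose, beside 49.5% of all genes called higher, and Dox 1 was the lowest Dox library in 15 of the 17, beside 71.2%. Without SMNV 2, 17 collagen rows were called higher, and without Dox 1, 15 were. A chondrocyte list of 11 genes summed to 2861 to 3227 CPM in SMNV and 4758 to 4962 CPM in Dox. Nearly all of it was the proteoglycan gene Acan, at 3026 ± 180 CPM in SMNV and 4865 ± 107 CPM in Dox (SD, n = 3 each), while Cnmd and Ucma were at 0. Of its 5 tested genes Acan was the single one called lower, and the scarce Sox9, Comp and Matn3 were called higher, by 1.05, 1.10 and 1.48 on the log2 scale, each below 5 CPM on average in both groups. An osteoblast list of 12 genes summed to 848.6 to 911.1 CPM in SMNV and 1146 to 1269 CPM in Dox, with Bglap and Dlx5 at 0. Most of that sum was Spp1, called lower at 751.7 ± 34.9 CPM in SMNV and 1117 ± 60 CPM in Dox. Of its 5 tested genes Spp1 and Phex were called lower, and Alpl, the alkaline phosphatase gene, was called higher, at 68.8 ± 5.8 CPM in SMNV and 23.9 ± 3.9 CPM in Dox (SD, n = 3 each). A smooth muscle and pericyte list of 10 genes summed to 3654 to 3748 CPM in SMNV and 3148 to 3607 CPM in Dox, without overlap, with Rgs5 at 0. Of its 9 tested genes Smtn, Lmod1 and Tagln were called higher, by 1.79, 0.38 and 0.16 on the log2 scale, Des was called lower, and Acta2 did not pass. The part of these genes in the collagen results was not tested.

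The lists that follow are read against the 30.5% of all tested genes called higher and the 29.9% called lower. Of 22 tested genes that fold, modify and export procollagen 9 rose and 7 fell, and the median log2 fold change was -0.05. Serpinh1, the collagen chaperone of the endoplasmic reticulum, averaged 2121 ± 70 CPM in SMNV and 1074 ± 111 CPM in Dox (SD, n = 3 each), and rose by 0.98 ± 0.08 on the log2 scale (adjusted p = 7.66e-08, edgeR). P3h3, a prolyl 3-hydroxylase family member, rose by 0.88 ± 0.08 on the log2 scale, and Plod1, a lysyl hydroxylase, by 0.77 ± 0.08. Of 16 tested genes of procollagen cleavage and crosslinking 11 rose and 3 fell, with a median of 0.63. Loxl1, a lysyl oxidase family enzyme, averaged 405.5 ± 42.4 CPM in SMNV and 151.9 ± 15.6 CPM in Dox and rose by 1.42 ± 0.09 (adjusted p = 7.33e-09). Pcolce, an enhancer of the procollagen C-proteinase, rose by 1.05 ± 0.08, and Tll1, a tolloid-like protease of that kind, fell by 0.89 ± 0.07.

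Around the fibril, 7 of 16 tested organiser genes rose and 4 fell, with a median log2 fold change of 0.22. The matrix glycoprotein genes Fbln1 and Fbln2 rose by 1.41 ± 0.09 and 1.21 ± 0.09 on the log2 scale, and Tnc, which codes for tenascin-C, fell by 0.59 ± 0.06. Of 9 tested collagen receptor genes 3 rose and 5 fell, with a median of -0.27. Mrc2, an endocytic receptor for collagen, rose by 1.24 ± 0.10 and Ddr1, a collagen-binding receptor tyrosine kinase, by 1.09 ± 0.10. Itgb1, the β subunit shared by the collagen-binding integrins, averaged 2188 ± 69 CPM in SMNV and 3417 ± 297 CPM in Dox (SD, n = 3 each) and fell by 0.64 ± 0.07.

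Of 14 tested genes of collagen degradation 4 rose and 6 fell, with a median log2 fold change of -0.01. Mmp2, the gelatinase A gene, averaged 1129 ± 11 CPM in SMNV and 1785 ± 74 CPM in Dox (SD, n = 3 each) and fell by 0.66 ± 0.06 on the log2 scale (adjusted p = 4.32e-07, edgeR). The inhibitor gene Timp1 fell by 0.62 ± 0.07, and Mmp11 rose by 0.77 ± 0.09. Of 24 tested genes of type I collagen transcription and TGF-β input 7 rose and 7 fell, close to the 30.5% and 29.9% over all tested genes, with a median of 0.04. Creb3l1, a membrane-bound transcription factor needed in mice for type I collagen production in bone, averaged 187.3 ± 21.2 CPM in SMNV and 82.7 ± 6.7 CPM in Dox and rose by 1.18 ± 0.08 (adjusted p = 3.55e-08). Tgfb3, a TGF-β ligand gene, rose by 0.67 ± 0.06, and Nfyc, a subunit of the CCAAT-binding factor NF-Y, by 0.77 ± 0.10. The NF-Y subunit genes Nfya and Nfyb did not pass, at 0.09 ± 0.07 (adjusted p = 0.341, edgeR) and 0.04 ± 0.09 (adjusted p = 0.749). Sp1 and Sp3 were called lower, at -0.29 ± 0.07 (adjusted p = 0.00206, edgeR) and -0.44 ± 0.07 (adjusted p = 8.95e-05).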

How the data were processed

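The authors deposited a table of estimated counts per gene and a table of TPM (length-scaled abundances) for 6 libraries; per the submitters' processing notes, fastp, HISAT2, HTSeq and the build mRatBN7.2 were used, without roles or versions. Per the labels' protocols, TRIzol and the VAHTS Universal V6 kit served for RNA and libraries. The sources used here name neither strand nor annotation, so overlapping and antisense genes cannot be told apart.

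Between 17.9% and 18.8% of the deposited estimated counts above 0 had decimals, where whole counts had been planned for, and all were rounded. They were filtered with filterByExpr, scaled by TMM and tested with edgeR 4.0.16 (quasi-likelihood, R 4.3.3), SMNV over Dox, two-sided, with Benjamini-Hochberg adjustment over 12614 genes and a threshold of 0.05. Shares and chain ratios used exact permutation tests (SciPy 1.17.1). Alternatives used DESeq2 1.42.0 and limma 3.58.1 on log2(TPM + 1). Same-numbered libraries did not deviate together. The members, classes, gene lists and tests were chosen with earlier results of these data known. Each library's value is given for the 3 most abundant rows and strongest called rise and fall of each class, and for the chain pairs. Of each pathway list the 3 called genes with the smallest p are named. Nfya, Nfyb, Sp1 and Sp3 were added because of the motifs marked. Col21a1 and other listed genes without a row were not analysed here. Upstream sequences and gene order come from RefSeq, GRCr8.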

Additional observations from a re-analysis of the deposited data

How the results depend on the processing

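Over 17 alternatives, 15 to 17 collagen rows were called higher, and 15 of the 17 rows kept that call under all of them; the exceptions were Col4a5 and Col15a1. The rows called lower numbered 3 with library totals alone, 2 on log2(TPM + 1), 2 on log2(TPM + 0.1), and 0 to 2 when a library was left out, beside 1 as reported. Of the genes called, 39.8% were higher on log2(TPM + 1) and 44.2% with library totals alone, beside 50.4% as reported, and over all genes the log2 fold change had a median of -0.10 on log2(TPM + 1) and -0.12 on log2(TPM + 0.1). On log2(TPM + 1) Col14a1 passed as lower (-0.23, adjusted p = 0.0186, limma), and Col5a2, not called, changed sign, to -0.029 on either TPM scale. Col1a1, Col1a2, Col4a1, Col8a2 and Col11a2 were under 2-fold on log2(TPM + 1), with log2 fold changes of 0.93, 0.90, 0.90, 0.91 and 0.66. With library totals alone, Col1a2, Col4a1 and Col8a2 were under 2-fold, at 0.96, 0.98 and 0.96. The same genes were under 2-fold without Dox 1, at 0.95, 0.93 and 0.96. Col1a2 and Col8a2 were so without SMNV 3, at 0.995 and 0.98, and Col1a2 without SMNV 1, at 0.98. Col4a2, Col16a1 and Col18a1 kept at least 1.08, 1.45 and 1.30 under every alternative. Transmembrane shares, SMNV minus Dox, ran from -2.2e-05 to 5.9e-06 percentage points when a library was left out, and the fibrillar share of collagen counts without Col1a1 and Col1a2 differed by -0.74 points.

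With the replicate block, 7387 genes were called and 16 collagen rows were higher, since Col15a1 lost its call (adjusted p = 0.0683); no other collagen call changed. Same-numbered libraries had correlations of 0.008, -0.12 and 0.002 of their deviations. With 3 libraries per group these values cannot settle whether the numbers pair libraries, and the labels do not say. The 18 pathway genes named by smallest p kept direction and call in all 306 refits. Depth limits the 21 untested rows, none above 0.788 CPM.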

Other observations

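Beyond the collagen chains, the authors' annotation gives a collagen triple-helix domain to 40 further rows, mostly C1q-related secreted proteins, collectins and scavenger receptors. Of these, 16 were tested, and 9 rose, 3 fell and 4 did not pass in the same edgeR fit, beside 30.5% of all tested genes called higher and 29.9% called lower. Emilin1, an elastic fibre glycoprotein gene, averaged 245.0 ± 29.5 CPM in SMNV and 83.1 ± 12.8 CPM in Dox (SD, n = 3 each), a log2 fold change of 1.56 ± 0.11. Scara5, a scavenger receptor gene, averaged 131.5 ± 7.3 CPM in SMNV and 69.2 ± 12.4 CPM in Dox and rose by 0.93 ± 0.10. The largest fall was Ccbe1, a secreted protein gene needed in mice for lymphatic vessel growth, at 41.3 ± 0.7 CPM in SMNV and 124.6 ± 7.2 CPM in Dox, or -1.59 ± 0.07 on the log2 scale (adjusted p = 1.97e-10, edgeR). Emilin1, Scara5 and Ccbe1 were picked after their values were seen.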
